A study of Mus musculus with 16 samples.

Results

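The MeOH eluate of hawthorn extract was compared directly with the whole extract, WS1442, after 6 h of treatment. The comparison was defined by the sample titles alone and took 6 of the 16 arrays in the series, 3 samples with MeOH eluate and 3 with WS1442. The cells were CGR8-Myh6-GFP mESCs, a mouse embryonic stem cell line whose GFP reporter is driven by the heart gene Myh6, and they were differentiating towards heart muscle when treated on day 4. WS1442 is made by drying an ethanol extract of hawthorn (flowering tops and leaves) and was given at 0.25 mg/ml, while MeOH eluate is the fraction that methanol washed from a column loaded with WS1442 and was given at 0.1 mg/ml. The doses differ, so every difference below is between these doses and not between equal amounts. The 2 DMSO samples harvested at 6 h carried the vehicle alone, and their values stand beside the others but entered no test. The labels do not say that replicates were separate cultures, so p-values measure the spread between these samples, which may be technical.

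Pluripotent cells that differentiate towards the heart pass through a state like the primitive streak of the embryo, where the transcription factors T, Mixl1, Gsc and Eomes are switched on by Nodal, Wnt and FGF signals before mesoderm and heart progenitors form. Nodal signalling induces its own inhibitors Lefty1 and Lefty2, and FGF signalling through ERK induces feedback genes such as Dusp6. NF-kB is a transcription factor that is freed by stress and cytokine signals and that induces chemokines together with its own inhibitors, and interferon signalling drives a separate set of antiviral genes.

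All arrays of 6 h shared 1 slide. Between 57.3 and 60.8% of gene spots were well above background on the MeOH eluate arrays and between 59.4 and 61.4% on the WS1442 arrays. The RNA integrity number was 9.6 to 10 with MeOH eluate and 10 in all WS1442 samples. Replicate arrays of WS1442 lay further apart than those of MeOH eluate, with a median absolute log2 difference between pairs of 0.13 to 0.159 against 0.108 to 0.132. This spread had a pattern among genes that missed the test. Of 261 genes that differed by more than 2-fold without passing, 214 had the higher mean with MeOH eluate, and in these WS1442 replicate 1 was the highest of its group in 87.9% and WS1442 replicate 3 the lowest in 90.7%, against 32.3% and 29.6% of all genes. Their median log2 signal was 5.59 to 5.88 on the MeOH eluate arrays, 5.59, 4.72 and 2.73 on WS1442 replicates 1, 2 and 3, and 4.85 and 5.13 with DMSO. WS1442 replicates 1 and 3 thus stood apart in opposite directions for this set, of which 38.8% had a plain gene name, against 57.5% of all genes. Of the markers listed for the labelled cells, all 18 primitive streak genes, 25 of 26 pluripotency genes and 18 of 20 cardiac progenitor genes were well above background on all 6 arrays. Gata5 and Bmp10 of the cardiac list and Myh6, the gene of the reporter, were not among the genes tested.

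Of 27606 genes tested, 1082 (3.92%) differed between the treatments at an adjusted p-value under 0.05 (limma). With MeOH eluate, 431 of them were higher (1.56% of all genes) and 651 were lower (2.36%). In each of the 1082 genes the 3 values of one treatment did not overlap the 3 of the other, as was the case in 32.4% of all genes. Their median absolute log2 difference was 0.39, and 54 genes (0.196%) differed by more than 2-fold, 16 higher (0.058%) and 38 lower (0.138%). Here and below, a log2 difference is MeOH eluate minus WS1442 on quantile-normalized log2 signals, so that a value of 1 is a 2-fold difference. The number called depended on single arrays. Without WS1442 replicate 1 it was 2772, with 62.1% of them higher, and without each of the other 5 arrays it was between 80 and 348, the lowest without MeOH eluate replicate 1. It was 121 without MeOH eluate replicate 3, 143 without WS1442 replicate 2, 175 without MeOH eluate replicate 2 and 348 without WS1442 replicate 3. When arrays were scaled to their 75th percentile instead of quantile normalized, 1616 genes were called and 15.2% of them were higher, so the split between directions moved with the scaling. None of the 143 genes selected for naming changed its sign in any alternative setting that gave it a value. For the 138 called genes among them the groups did not overlap, so leaving out an array could hardly change a sign. Several other settings used the same group means, so the constant sign is a description and not a check.

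**Figure D1:**
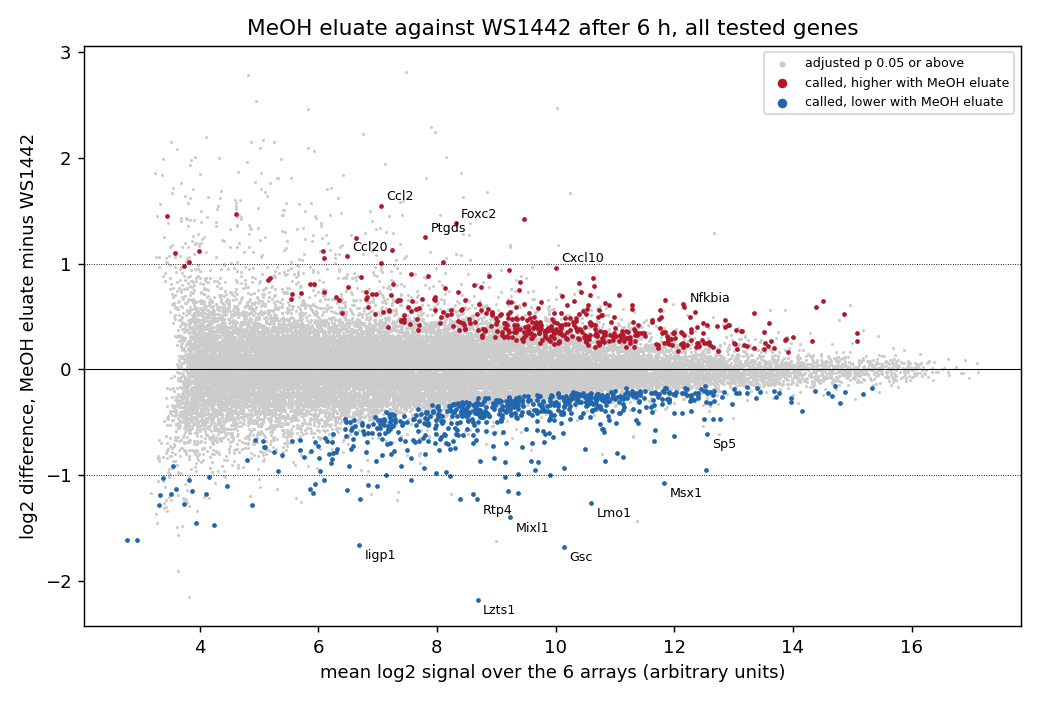
Log2 difference between MeOH eluate and WS1442 after 6 h (vertical axis) against the mean log2 signal over the 6 arrays (horizontal axis) for all 27606 tested genes, one point per gene. Red points are the 431 called genes that were higher with MeOH eluate, blue points the 651 that were lower, and dotted lines mark a 2-fold difference. Grey points above the upper line, mostly at low signal, are among the 214 genes that missed the test.

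The DMSO arrays, which had no part in the calls, place these differences. In 895 of the 1082 called genes (82.7%) the DMSO mean was nearer to WS1442 than to MeOH eluate, as it was in 60.3% of all genes tested. This held for 354 of the 431 higher genes and for 541 of the 651 lower ones. The WS1442 mean lay between DMSO and MeOH eluate in 572 called genes (52.9%, against 42.8% of all genes). This is an order of means without a test, and the DMSO mean was within 0.25 of WS1442 in 739 of the 1082. It was that near in 20689 of all 27606 genes, so such nearness is not particular to the called genes. The DMSO mean lay between the treatments in 471 (43.5%, against 30.6%), and in 39 (3.6%, against 26.6%) MeOH eluate lay between DMSO and WS1442. All 54 genes past 2-fold fell in the first 2 of these arrangements, 33 and 21.

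The primitive streak genes were lower with MeOH eluate. Of 18 tested members of this list, 9 were called lower and none higher, against 2.36% of all genes called lower, with a list median of -0.37 beside 0 for all genes, and 3 of the 9 were past 2-fold. Gsc, a homeobox gene of the anterior streak and organizer, had log2 signals of 9.23, 9.39 and 9.26 with MeOH eluate, 10.97, 10.89 and 11.06 with WS1442, and 11.84 and 12.07 with DMSO. The treatments did not overlap, and Gsc was 3.2-fold lower with MeOH eluate (log2 difference -1.68 ± 0.07 SE, n = 3 per group, adjusted p = 0.000126 by limma). Mixl1, a homeobox gene of the nascent mesendoderm, read 8.57, 8.58 and 8.44 with MeOH eluate, 10.04, 9.91 and 9.85 with WS1442, and 10.97 and 10.87 with DMSO. It was 2.63-fold lower (adjusted p = 0.000501, limma). Evx1, which marks the posterior streak, read 8.77, 8.7 and 8.38 with MeOH eluate against 9.8, 9.69 and 9.82 with WS1442, a 2.22-fold difference. Evx1os, a noncoding RNA named for its place opposite Evx1, was 2.77-fold lower but well above background on only 1 of 3 MeOH eluate arrays. It entered the test only through WS1442, where it was higher, so its call adds no support. For Gsc, Mixl1 and Evx1 the 3 groups did not overlap, and WS1442 lay between DMSO and MeOH eluate.

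T, the gene of Brachyury, was 2-fold lower with MeOH eluate, with 6.66, 6.71 and 6.53 against 7.52, 7.66 and 7.72 with WS1442 and 7.93 and 7.91 with DMSO. Lhx1, Msgn1 and Eomes, which act in axial, presomitic and early mesendoderm, had log2 differences of -0.87, -0.72 and -0.51 (other kept probes of Lhx1 -1.06 and -0.11), and the ligands Wnt3 and Fgf8 of -0.47 and -0.38. Members that did not pass included Mesp1, the early marker of heart precursors, at -0.02, Tbx6 at -0.08, Kdr at 0.15 and Hand1 at 0.51. In bulk RNA, fewer cells of a type and less RNA per cell cannot be told apart. The number of streak genes called was 6 without each of 5 arrays and 9 without WS1442 replicate 1.

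**Figure D2:**
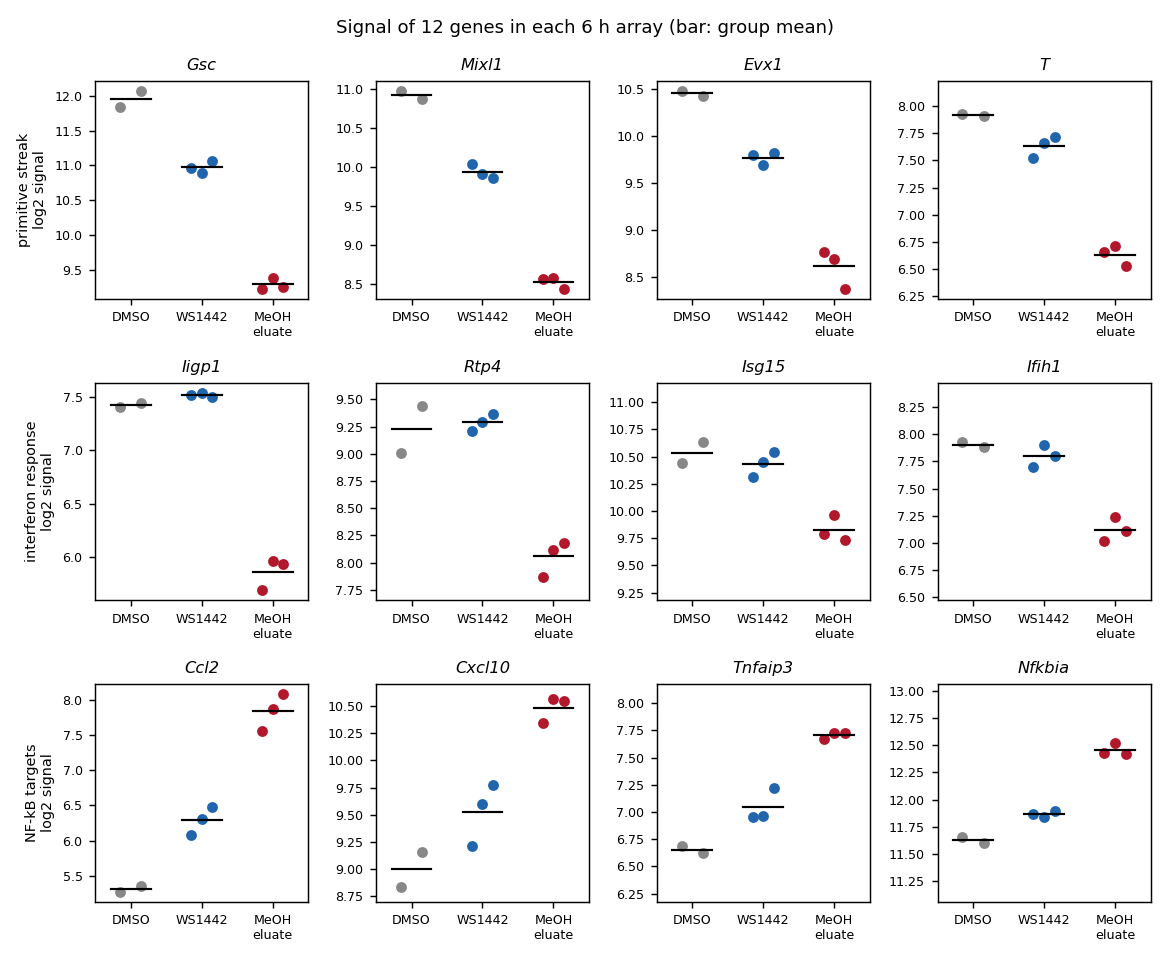
Log2 signal (vertical axes, each panel with its own range) of 12 genes on each of the 8 arrays of 6 h, in grey for DMSO, blue for WS1442 and red for MeOH eluate, with group means as bars. In the upper row the primitive streak genes step down from DMSO over WS1442 to MeOH eluate, in the middle row the interferon-inducible genes are lower with MeOH eluate alone, and in the lower row the NF-kB targets step up.

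A minority of the genes of the signals that maintain the streak were lower. In the Nodal and TGF-beta list, 5 of 22 tested members were lower (2.36% of all genes) and 1 was higher (1.56% of all genes), with a list median of -0.12. Lefty2, a secreted Nodal inhibitor, read 8.56, 8.78 and 8.56 with MeOH eluate and 9.59, 9.59 and 9.77 with WS1442 (2.03-fold lower, adjusted p = 0.00277). Its paralog Lefty1 had a log2 difference of -0.79, the activin-binding Fst of -0.83, the Nodal coreceptor Tdgf1 of -0.72 and Nodal itself of -0.68. Nodal read 11.87 and 12.11 with DMSO, 11.67, 12.07 and 12.25 with WS1442 and 11.21, 11.45 and 11.28 with MeOH eluate, so that DMSO and WS1442 overlapped, whereas Lefty2 read 10.12 and 10.56 with DMSO, above both treatments. The receptors and Smads of the list did not pass. Tgfb2 was the member that rose, with a log2 difference of 0.35.

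Of 22 Wnt genes tested, 6 were lower with MeOH eluate (2.36% of all genes) and none higher, with a list median of -0.16. Wnt5b, a ligand of noncanonical Wnt signalling, had a log2 difference of -0.95, Wnt5a of -0.67, the Wnt target Sp5 of -0.61 and the Wnt receptor antagonist Znrf3 of -0.39. Sp5 read 12.3, 12.26 and 12.19 with MeOH eluate and 12.84, 12.88 and 12.85 with WS1442, and the DMSO values of 12.85 and 12.82 overlapped the latter. Axin2, the most widely used readout of canonical Wnt signalling, had a difference of 0.01 (adjusted p = 0.968) and Wnt3a of 0.4 (adjusted p = 0.379). Among 20 BMP genes, 3 were lower, against the same 2.36%, and none higher. Msx1, a homeobox target of BMP, was 2.1-fold lower, with 11.25, 11.36 and 11.26 against 12.4, 12.31 and 12.37.

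Of 16 tested feedback and target genes of the FGF/ERK pathway, 7 were lower (2.36% of all genes) and 1 higher (1.56%), with a list median of -0.27 and 6 members above 0. Dusp6, a phosphatase that inactivates ERK, read 10.06, 10.16 and 10.14 with MeOH eluate, 10.91, 10.83 and 10.89 with WS1442 and 11.27 and 11.26 with DMSO (1.69-fold lower, adjusted p = 0.00117). The ETS factors Etv1 and Etv5, which ERK signalling induces, had differences of -0.76 and -0.63, and Spry4, an inhibitor of receptor signalling, of -0.47. Fgf10, a ligand of mesenchyme, was 2-fold lower, while 12 of 14 tested ligands and receptors of the FGF list did not pass. Egr1 is an immediate early target of ERK and also fell relative to WS1442, by 0.41 on the log2 scale, yet its position against DMSO was another one. It read 11.82, 11.9 and 12.03 with MeOH eluate and 11.85 and 12.01 with DMSO, and 12.29, 12.34 and 12.36 with WS1442. Egr2 likewise was highest with WS1442, at 8.59, 8.64 and 8.67 against 8.07, 8.19 and 8.14 with MeOH eluate and 7.33 and 7.88 with DMSO.

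Without MeOH eluate replicate 1, the array whose removal cost the most calls, 4 Nodal, 3 Wnt and 2 FGF/ERK genes were called lower, and over all 6 omissions the ranges were 4 to 6, 3 to 6 and 2 to 7. For the FGF/ERK list the counts were 3, 4 and 3 without MeOH eluate replicate 2, MeOH eluate replicate 3 and WS1442 replicate 2, and 7 and 6 without WS1442 replicates 1 and 3. For the Wnt list they were 3, 3, 4, 6 and 5 in that order.

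Interferon-inducible genes were lower with MeOH eluate than with WS1442, and the WS1442 values overlapped those of DMSO. All 14 tested members of the interferon list had a negative difference, with a median of -0.52, and 5 of them passed the test, against 2.36% of all genes called lower. These were Isg15, a ubiquitin-like modifier, at -0.6, its protease Usp18 at -0.87, the RNA sensor Ifih1 at -0.68, the antiviral Oasl2 at -0.5 and the transcription factor Irf1 at -0.39. In all 5 the ranges of WS1442 and DMSO overlapped and those of the treatments did not. Isg15 read 9.79, 9.96 and 9.73 with MeOH eluate, 10.31, 10.45 and 10.54 with WS1442 and 10.44 and 10.63 with DMSO. Larger differences were found outside the list. Iigp1, an interferon-inducible GTPase, read 5.69, 5.96 and 5.94 with MeOH eluate and 7.52, 7.54 and 7.5 with WS1442, beside 7.4 and 7.44 with DMSO (3.15-fold lower, adjusted p = 0.00117). Rtp4, another interferon-inducible gene, read 7.87, 8.12 and 8.18 against 9.21, 9.29 and 9.37 (2.35-fold lower, adjusted p = 0.00176), and Apol9a was 2.35-fold lower. The DMSO values overlapped those of WS1442 for Rtp4 and Apol9a and lay just below them for Iigp1, and the MeOH eluate values lay below both. Of the list members that missed the test, Ifit1 had the largest difference at -1.04 (adjusted p = 0.053). The number called in this list was 0 without MeOH eluate replicate 1, MeOH eluate replicate 3 or WS1442 replicate 2, 3 without MeOH eluate replicate 2 or WS1442 replicate 3, and 6 without WS1442 replicate 1.

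NF-kB targets went the other way. Of 19 tested members of the list, 10 were higher with MeOH eluate and none lower (percent called over all genes in this direction, 1.56), and 18 of 19 differences were positive with a median of 0.36. Ccl2, a chemokine that attracts monocytes, read 7.55, 7.87 and 8.08 with MeOH eluate, 6.08, 6.31 and 6.48 with WS1442 and 5.27 and 5.35 with DMSO. It was 2.92-fold higher with MeOH eluate (log2 difference 1.55 ± 0.16 SE, n = 3 per group, adjusted p = 0.00675 by limma). The chemokines Cxcl10 and Cxcl1 had log2 differences of 0.96 and 0.87. The inhibitors that NF-kB induces against itself rose with them, Nfkbia by 0.59 and Tnfaip3 by 0.66, and so did Ier3 by 0.61, Tnf by 0.45, Icam1 by 0.41 and Nfkb2 by 0.27. Nfkbia was the steadiest of these, with 12.43, 12.52 and 12.42 with MeOH eluate, 11.87, 11.84 and 11.89 with WS1442 and 11.66 and 11.6 with DMSO, and it passed in all 22 alternative settings. In all 10 called members the DMSO mean was nearer to WS1442 than to MeOH eluate. Outside the list, the chemokine Ccl20 was 2.11-fold higher with MeOH eluate, with 6.95, 7.1 and 7.02 against 5.7, 6.02 and 6.13. The count of 10 was 9 without WS1442 replicate 1, 7 without WS1442 replicate 3, 4 without WS1442 replicate 2 or MeOH eluate replicate 2, and 3 without MeOH eluate replicate 1 or 3.

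The promoters of the members of both groups were read for the letters that their factors are known to bind. GGG followed by any 3 bases and TTCC stands for the NF-kB site, and a pair of GAAA blocks separated by any 2 bases for the element bound by interferon-activated factors, both searched on either strand. In the 250 bases before a transcript start (RefSeq, GRCm38.p6), the first was present in 5 of 9 called NF-kB genes with a promoter in the table, in 2 of 6 that were tested and not called, and in 5.74% of 15143 tested genes. The second was present in 1 of 4 called interferon genes, in 3 of 8 not called, and in 3.18% of tested genes. A match is a description of the letters and not of binding. Shown are the promoters of 3 genes that rose and 1 that fell, because Cxcl10, although widely known as interferon-inducible, rose with the NF-kB genes, and its promoter holds both kinds of match. Capitals mark the matches on either strand, each sequence runs 5′ to 3′ along the gene's strand and ends at the base before the transcript start.
Cxcl1 (chr5:90890995-90891244, plus strand): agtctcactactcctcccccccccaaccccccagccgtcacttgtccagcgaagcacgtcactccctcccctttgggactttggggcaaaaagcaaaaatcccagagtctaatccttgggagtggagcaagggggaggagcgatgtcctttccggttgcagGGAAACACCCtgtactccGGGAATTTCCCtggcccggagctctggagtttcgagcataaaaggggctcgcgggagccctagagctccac
Nfkbia (chr12:55492648-55492897, minus strand): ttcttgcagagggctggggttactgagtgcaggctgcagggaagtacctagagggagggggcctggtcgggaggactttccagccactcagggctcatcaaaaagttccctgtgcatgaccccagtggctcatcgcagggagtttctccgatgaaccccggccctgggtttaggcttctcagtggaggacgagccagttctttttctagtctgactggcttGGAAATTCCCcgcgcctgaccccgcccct
Cxcl10 (chr5:92348890-92349139, minus strand): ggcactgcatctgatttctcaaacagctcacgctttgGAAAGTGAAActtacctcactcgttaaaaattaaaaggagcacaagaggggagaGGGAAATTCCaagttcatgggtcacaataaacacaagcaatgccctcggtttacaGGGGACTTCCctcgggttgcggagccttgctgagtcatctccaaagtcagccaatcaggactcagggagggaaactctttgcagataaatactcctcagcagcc
Isg15 (chr4:156200819-156201068, minus strand): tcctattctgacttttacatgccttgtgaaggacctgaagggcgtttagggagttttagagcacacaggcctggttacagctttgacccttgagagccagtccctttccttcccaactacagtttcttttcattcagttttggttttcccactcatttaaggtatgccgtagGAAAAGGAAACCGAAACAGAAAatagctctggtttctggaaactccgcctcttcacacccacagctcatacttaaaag
Cxcl1 and Cxcl10 hold 3 and 2 matches to the NF-kB letters and Nfkbia holds 1. Isg15 holds 3 overlapping matches to the interferon letters and Cxcl10 holds 1. Cxcl10 read 10.34, 10.56 and 10.55 with MeOH eluate, 9.21, 9.6 and 9.77 with WS1442, and 8.84 and 9.16 with DMSO, so it was higher with MeOH eluate, as Ccl2 and Nfkbia were, while Isg15 was lower.

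**Figure D3:**
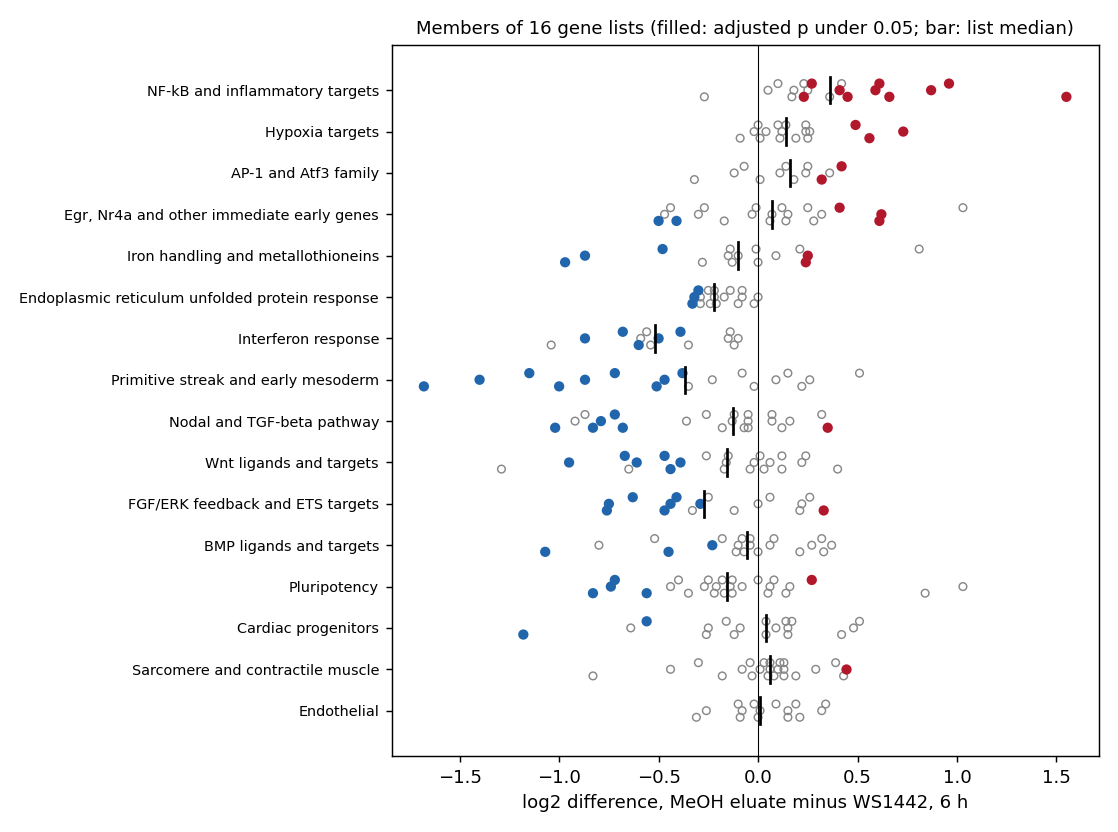
Log2 difference between MeOH eluate and WS1442 after 6 h (horizontal axis) for the tested members of 16 gene lists (vertical axis), one point per gene. Filled points passed the test, red where higher and blue where lower with MeOH eluate, open points did not, and bars are list medians, from -0.52 for the interferon list to 0.36 for the NF-kB list.

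Other stress and signal response genes differed in part. For comparison with the counts below, 1.56% of all genes were called higher and 2.36% lower with MeOH eluate. Of 17 hypoxia targets, 3 were higher with MeOH eluate and none lower, namely Ndrg1, Bnip3 and Pfkfb3 with log2 differences of 0.73, 0.56 and 0.49. The immediate early genes were split, since Klf6, Dusp1 and Klf10 were higher by 0.62, 0.61 and 0.41 while Egr2 and Egr1 were lower. Dusp1, a phosphatase of stress kinases, read 11.56, 11.59 and 11.63 with MeOH eluate, 10.92, 11.03 and 11 with WS1442 and 10.64 and 10.69 with DMSO. Among metal-handling genes, the metallothioneins Mt2 and Mt1 had differences of -0.87 and -0.48 and the zinc exporter Slc30a1 of -0.97 (another kept probe -0.12), all of which zinc induces, while the ferritin gene Ftl1 and the transporter Slc39a10 were higher by 0.25 and 0.24. Mt2 read 9.27, 9.27 and 8.93 with MeOH eluate, 9.98, 9.93 and 10.16 with WS1442 and 10.02 and 10.01 with DMSO, with WS1442 at the DMSO level. Mt1 and Slc30a1 instead had WS1442 values just above those of DMSO. Mt1 read 11.08, 11.11 and 11.22 with WS1442 against 10.9 and 11.06 with DMSO. Slc30a1 read 8.53, 8.71 and 8.66 against 8.5 and 8.51. All 17 tested genes of the unfolded protein response had a negative difference, with a median of -0.22, and Pdia4, Creld2 and Manf, which act in protein folding and secretion, passed. Chac1, an ATF4 target that degrades glutathione, had a difference of -0.98 and passed in every setting. The other called member of the 26 tested ATF4 genes, Cebpb, was higher by 0.58. Of 27 cholesterol and fatty acid genes 3 were higher (1.56% of all genes), among them Lss and Msmo1 by 0.28 and 0.27, while other kept probes of these read 0.04 and 0.19. No tRNA synthetase or respiratory chain gene passed, of 20 and 24 tested.

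A smaller set of called genes had DMSO nearer to MeOH eluate, 187 of 1082. Past 2-fold there were 3, all chosen for mention after their values were seen, namely Prob1, BC147527 and an unnamed transcript. Prob1 read 6.45, 6.41 and 6.47 with MeOH eluate, 7.39, 7.61 and 7.63 with WS1442 and 6.98 and 6.63 with DMSO. BC147527 read 6.95, 7.2 and 6.96, then 8.15, 7.92 and 8.19, then 7.25 and 7.4. Among the list genes, Gbx2, a homeobox gene of the anterior hindbrain, had a difference of -0.85 with 5.88, 5.9 and 5.63 with MeOH eluate, 6.65, 6.67 and 6.63 with WS1442 and 5.92 and 5.81 with DMSO. Nqo1, a quinone reductase that NRF2 and the aryl hydrocarbon receptor induce, was lower by 0.51. It was the called member of 7 tested aryl hydrocarbon receptor genes, against 2.36% of all genes called lower. In Prob1, BC147527 and Gbx2 the WS1442 values lay above those of both other groups.

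Lists of other cell types held calls too, beside 1.56% of all genes called higher and 2.36% called lower. Of 26 pluripotency genes, 4 were lower, Nanog at -0.83, Otx2 at -0.74, Tdgf1 at -0.72 and Tbx3 at -0.56, and Pou3f1 was higher at 0.27, while Pou5f1, which defines pluripotent cells, had a mean of 13.71 in each of the 3 groups. Of 18 cardiac progenitor genes, Gata6 and Tbx3 were lower. Gata6, a transcription factor of endoderm and heart, was 2.26-fold lower, with 7.91, 8.06 and 8.07 against 9.32, 8.98 and 9.28, while Nkx2-5 and Isl1 had differences of 0.09 and 0.15 and did not pass. Of 23 sarcomere genes Cnn1 alone passed, higher by 0.44, and no endothelial gene of 15 passed. Lmo2, a cofactor of early blood formation, was 2.08-fold lower, and no other of 16 blood genes passed. Of 18 neuroectoderm genes, Irx3 and Nes were higher by 0.83 and 0.34, and Gbx2 had a difference of -0.85. Among the retinoic acid genes, the degrading enzyme Cyp26a1 had a difference of -0.84 and the reductase Dhrs3 of -0.5, and both passed. The Notch targets Hes5 and Hes1 were lower by 0.95 and 0.28. Of 27 genes of DNA replication and 25 of mitosis, 3 and 2 were lower, each by less than 0.3.

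Genes outside these groups completed the 28 with the largest differences, 14 in each direction. Lzts1, a leucine zipper gene, had the largest of all called differences, with 7.57, 7.62 and 7.6 with MeOH eluate, 9.81, 9.73 and 9.79 with WS1442 and 11.02 and 11.08 with DMSO (4.53-fold lower, adjusted p = 1.61e-05). Its signal comes from the brightest probe, and other kept probes of the gene had differences of -0.88 and -0.05. Foxc2, a forkhead factor of paraxial mesoderm and vessels, read 9, 9.08 and 8.94 with MeOH eluate, 7.64, 7.51 and 7.72 with WS1442 and 5.78 and 5.76 with DMSO (2.61-fold higher, adjusted p = 0.000704), and its neighbour in the family, Foxc1, was higher by 0.57. The forkhead genes Foxq1 and Foxa2 were called lower, with log2 differences of -0.8 and -0.54. Lmo1, a LIM-domain cofactor, read 9.99, 10.01 and 9.9 against 11.34, 11.11 and 11.23 (2.39-fold lower). Foxc2, Lzts1, Gsc, Iigp1, Mixl1 and Lmo1 were the 6 of these 28 genes that passed in every setting that gave a value.

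Also higher with MeOH eluate were Ptgds, a prostaglandin D synthase, by 2.37-fold, Dio3, the enzyme that inactivates thyroid hormone, by 2.36-fold, the transporter Slc6a12 by 2.08-fold, the ubiquitin ligase Trim47 by 2.03-fold, the protocadherin Pcdh19 by 2.02-fold, and the proteases Amz1 and Prss23 by 1.86-fold and 1.85-fold. Rnu11, the U11 small nuclear RNA, was 2.67-fold higher, and Il18rap, a receptor subunit for interleukin 18, was 2.78-fold higher at a low signal, with 5.16, 5.14 and 5.73 against 3.99, 3.69 and 3.92. Stac was not well above background on any WS1442 array and exceeded WS1442 at least 1.7-fold in the MeOH eluate samples, the bound taking the lowest signal well above background on each array in place of dimmer values. Lower with MeOH eluate were the cadherin Cdh11 by 2.34-fold and the homeobox gene Nkx1-1 by 2.43-fold. Selenbp1, Ikzf1 and Mup-ps12 were not well above background on any MeOH eluate array and were at least 2.07-fold, 1.24-fold and 1.1-fold lower, and Gsto2, in the same position, had no bound above 1. These 5 genes entered the test only through the group in which they were higher, so their calls add no support. Under normexp background correction the differences of Stac, Ikzf1 and Gsto2 were 0.2, -0.17 and -0.17. That setting added an offset of 50 to each intensity, which by itself makes differences of dim probes smaller. The smallest differences of Selenbp1 and Mup-ps12 over all settings were -0.31 and -0.18.

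The 48 gene lists held 809 distinct tested genes, of which 123 (15.2%) were called. Genes with a plain name were called in 5.37% of cases. The lists were chosen with earlier results of these data known, so this share is a description.

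The same comparison was made after 24 h, on arrays of another slide. The difference between the treatments changed between 6 h and 24 h in 5036 of 27605 genes (18.2%, limma, adjusted p under 0.05), and in 35 of the 54 genes past 2-fold at 6 h. The median absolute difference of these 54 genes was 1.17 at 6 h and 0.42 at 24 h, and 35 of them kept their sign. Since they were chosen for their size at 6 h, a smaller value at 24 h is no finding. Time point and slide cannot be told apart. The called streak genes were mixed at 24 h. Gsc, Lhx1, Mixl1, Evx1, Eomes and Msgn1 had log2 differences of -1.03, -0.87, -0.73, -0.65, -0.54 and -0.51. Wnt3, Fgf8 and T had differences of -0.09, 0.09 and 0.12. Foxc2 was still higher by 0.65. Of the called interferon genes, Isg15, Usp18, Irf1, Oasl2 and Ifih1 had differences of 0.39, 0.26, 0.14, 0.03 and -0.07 at 24 h. Outside that list, Iigp1, Apol9a and Rtp4 had differences of 0.51, 0.24 and -0.2. The chemokines Ccl2, Cxcl1 and Cxcl10 had differences of 0.4, 0.27 and 0.16, and Ccl20 had turned to -1.32. All 5 called interferon genes and 8 of the 10 called NF-kB genes had a difference that changed between the time points, as had 6 of the 9 called streak genes. Among all genes called at 6 h, the difference changed in 659 of 1082. Pcdh19 had a difference of 1.19 at 24 h beside 1.01 at 6 h, and no change between time points was detected for it.

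**Figure D4:**
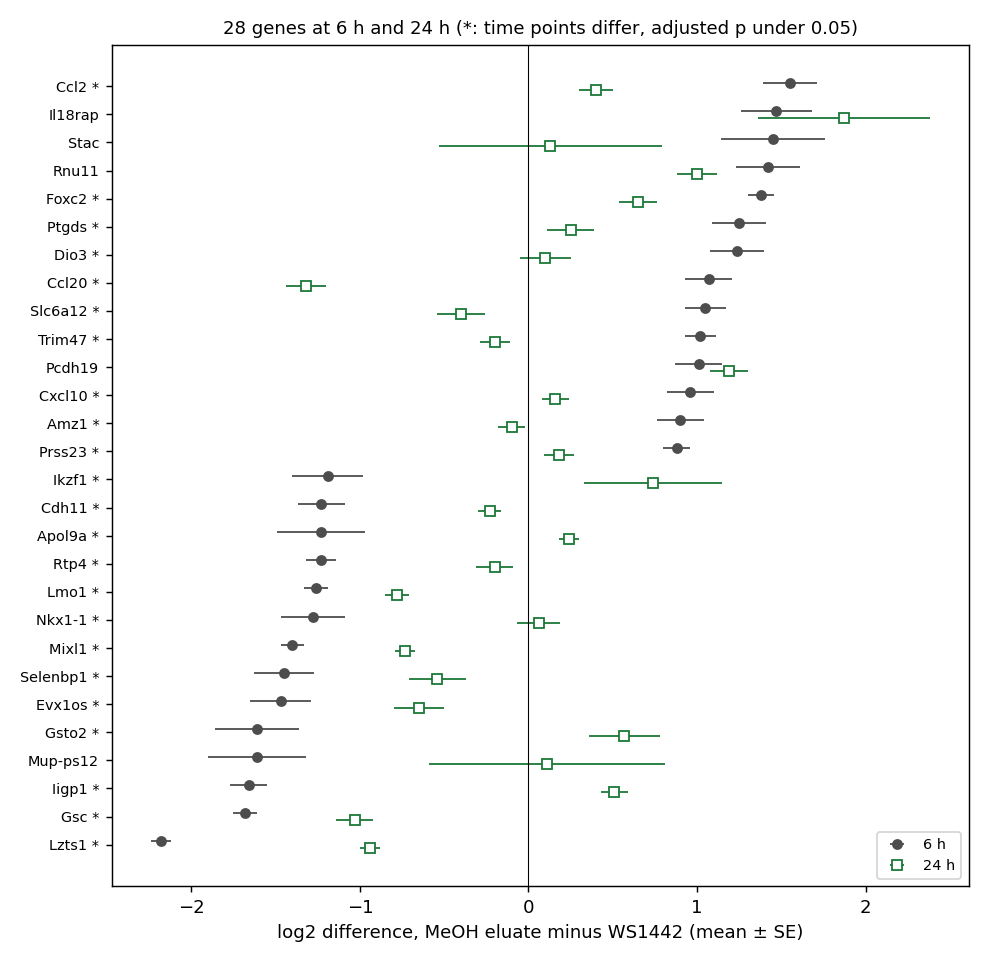
Log2 difference between MeOH eluate and WS1442 (horizontal axis, mean ± SE, n = 3 per group) of the 28 genes with the largest differences at 6 h, after 6 h (filled circles) and 24 h (open squares). A star marks the 23 genes whose difference changed between the time points, and 10 of the 28 had the opposite sign at 24 h. The genes were chosen for their size at 6 h, so a smaller difference at 24 h is no finding.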

How the data were processed

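RNA of 16 samples was labelled with 1 dye and hybridised to Agilent arrays. The deposited scanner files hold background-subtracted, detrended signal intensity per spot from Agilent Feature Extraction 11.5.1.1, and the authors also deposited a table of quantile-normalized intensity, used as an alternative. From the scanner files, log2 intensities were computed without spots flagged as nonuniform, spots of 1 probe were averaged, and the 16 arrays were quantile normalized (limma 3.58.1, R 4.3.3). Probes well above background on all arrays of at least 1 of both groups were kept, and the brightest stood for its gene. The 3 MeOH eluate and 3 WS1442 arrays of 6 h were fitted with limma (trend), Benjamini-Hochberg adjusted over 27606 genes, with calls at 0.05. The interaction with time was fitted on 12 arrays. The fit was tested on simulated data. The number of arrays limits the precision.

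The comparison and the 48 gene lists were chosen with earlier results of these data known. Genes named are the 14 with the largest called differences in each direction without overlap and with a plain name, and up to 6 called members per list, or the member with the smallest p of a list with none. Fewer are described, and some other genes are marked as chosen after their values were seen. Further list members, such as Tnf, Icam1, Nfkb2, Axin2, Mesp1 and Pou5f1, were picked outside this rule and carry no such mark. Settings tried were scaling, background correction, filter, probe summary, the authors' table, the samples in the fit, the variance model, the methods' t-test, blocks for replicate number and slide position, and leaving out each array. Promoters came from RefSeq (GRCm38.p6). Some items withheld for evaluation are not reported here.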

Additional observations from a re-analysis of the deposited data

Results flagged for a closer look

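Among the 28 genes with the largest differences at 6 h, 23 had a difference between MeOH eluate and WS1442 that changed between the time points (interaction in limma over 12 arrays, adjusted over 27605 genes, of which 18.2% passed). Of all 1082 genes called at 6 h, 659 changed likewise. The 28 were chosen for their size at 6 h, which enters the contrast, so a smaller difference at 24 h is no finding. Each value below is the log2 difference at 24 h minus that at 6 h, and time point and slide cannot be told apart. For genes that were higher with MeOH eluate at 6 h, the change was -1.14 for Ccl2, -2.39 for Ccl20 and -0.80 for Cxcl10 among the chemokines. It was -0.73 for Foxc2, -1.0 for Ptgds, -1.13 for Dio3, -1.45 for Slc6a12, -1.22 for Trim47, -1.0 for Amz1 and -0.70 for Prss23. Of these 10, Ccl20, Slc6a12, Trim47 and Amz1 had a negative difference at 24 h, of -1.32, -0.40, -0.20 and -0.10.

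For genes that were lower at 6 h, the change was 2.16 for Iigp1, 1.47 for Apol9a and 1.03 for Rtp4 among the interferon-inducible genes, and 0.65 for Gsc, 0.67 for Mixl1 and 0.82 for Evx1os among those of the streak. It was 1.24 for Lzts1, 0.48 for Lmo1, 1.35 for Nkx1-1, 0.99 for Cdh11, 0.91 for Selenbp1, 2.18 for Gsto2 and 1.93 for Ikzf1. Gsto2, Ikzf1, Nkx1-1, Iigp1 and Apol9a had a positive difference at 24 h, of 0.57, 0.74, 0.06, 0.51 and 0.24. The signals of Gsto2, Ikzf1 and Selenbp1 were not well above background with MeOH eluate at 6 h, and that of Ikzf1 was not so on any WS1442 array of 24 h and on 1 of 3 with MeOH eluate. Evx1os was well above background on only 1 of 3 MeOH eluate arrays of 6 h.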

How the results depend on the processing

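The differences of the 143 genes selected for naming kept their sign in all settings that gave a value, and the counts moved. Most of these genes were selected as called genes without overlap, so the constant sign is no check of them. Against 1082 genes called (54 past 2-fold, 39.8% of calls higher with MeOH eluate, 82.7% with DMSO nearer to WS1442), all 16 arrays in 1 fit gave 3645 (156 past 2-fold, DMSO 76.8%), array weights 2596 (123, 47% higher, DMSO 77.7%), and the 8 arrays of 6 h 1756. No trend in the variance gave 116 (35, 23.3% higher, DMSO 92.2%), no filter on dim probes 430 (36.5% higher, DMSO 85%), slide position as a block 189 (27, DMSO 92.6%), and the methods' t-test 72 (9, 29.2% higher, DMSO 87.5%), with 5870 genes at an unadjusted p under 0.05. Normexp correction, whose added offset makes differences of dim probes smaller, left 14 past 2-fold, and scaling to the 75th percentile gave 15.2% higher.

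Leaving out 1 array gave 80 to 2772 calls, 18 to 319 past 2-fold, 35 to 62.1% higher, DMSO nearer to WS1442 in 75.5 to 95%, and 2589 to 6309 genes that changed between time points, against 5036. The lowest of the last came without WS1442 replicate 3 of 24 h. The replicate block gave 214 calls (33 past 2-fold, 44.9% higher, DMSO 92.1%). Deviations of samples with the same number correlated at 0.271, -0.059 and -0.036, and those of samples with different numbers at -0.212 to 0.255. With 3 arrays per group, these values cannot decide whether the numbers pair the samples. The DMSO shares and list counts under each setting were chosen after seeing the data. Over all settings, 3 to 9 streak, 0 to 9 interferon and 1 to 8 FGF/ERK genes were called lower and 2 to 11 NF-kB genes higher, with medians of -0.42 to -0.31, -0.56 to -0.34, -0.28 to -0.19 and 0.27 to 0.40. The cause of these changes was not tested. Dim probes have low signal over background, so their differences are the least certain.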

Other observations

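Several smaller lists held called genes, beside 1.56% of all genes called higher and 2.36% called lower. Of 16 clock genes, the repressors Bhlhe40 and Bhlhe41 were higher with MeOH eluate, by 0.51 and 0.81 on the log2 scale. Of 31 axon guidance genes, Sema3c was higher by 0.68, while Sema3f, Nrp1, Epha1 and Efnb1 had differences of -0.75, -0.68, -0.46 and -0.38. Twist1 and Ets1 were higher by 0.58 and 0.37 among 11 neural crest genes. Of 20 genes of matrix proteases and proteoglycans, Adamts1 and Loxl4 were higher by 0.8 and 0.56 and Adamts9 had a difference of -0.66. Pdgfrb, a receptor of mesenchymal cells, had a difference of -0.84 (another kept probe -0.04), and Dnd1, an RNA-binding protein of germ cells, of -0.64.

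Small structural RNAs, chosen after their values were seen, leaned to higher signals with MeOH eluate. Of 6 tested genes with names in Rnu, 5 were called higher (1.56% of all genes) and none lower, with a median of 0.56, although Rnu1a1, Rnu1b1 and Rnu1b6 are near-identical copies whose probes may share RNA. Rn7sk, Rpph1 and Rmrp had differences of 0.70, 0.66 and 0.53 (adjusted p = 0.00342, 0.0189 and 0.0254, limma). Against the same 1.56%, of 51 Snord genes 6 were higher and none lower, with 41 above 0 and a median of 0.15, and of 30 Snora genes 3 were higher with a median of 0.05. At 24 h the median was 0.29 for Rnu and -0.12 for Snord genes.

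Some large differences rested on 1 array and missed the test, and were likewise chosen after their values were seen. Phldb1 had a difference of 2.47 because WS1442 replicate 3 read 4.11 while replicates 1 and 2 read 11.06 and 11.19. Nhsl2 had the largest difference of all genes, 2.81, with WS1442 replicate 3 again the lowest.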
